A study of Mus musculus with 6 samples.

Results

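Oxidative phosphorylation is carried out by 5 enzyme complexes of the inner mitochondrial membrane, and most of their subunits are encoded in the nucleus. The genes described here are the rows of the deposited liver table whose symbols begin with Nduf followed by a, b, c, s or v and a number, with Uqcr, with Cox4 to Cox8, or with Atp5, together with Sdha, Sdhb, Sdhc and Sdhd. This rule found 81 of the 17460 rows. Of these, 78 are subunits: 34 of complex I, 4 of complex II, 8 of complex III, 17 of complex IV and 15 of complex V (ATP synthase). The other 3, Cox7a2l, Atp5s and Atp5sl, match by name only. All 81 genes passed the filter on low values (3 or more livers with a value no lower than 1).

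PolyA-selected mRNA was sequenced from 6 whole-liver samples of C57BL/6 mice aged 9 months, all fed a NASH diet rich in fructose, trans fat and cholesterol for 24 weeks. The 3 Blnc1 LKO livers came from mice in which the long noncoding RNA Blnc1 was deleted in the liver, and the 3 control livers from mice that kept it. By the study's methods, LKO mice were Cas9 transgenic mice injected through the tail vein with adenovirus carrying a pair of sgRNAs against Blnc1. For its high-fat diet cohort, the study describes the control as the same Cas9 strain given GFP adenovirus. For the NASH diet cohort the paper says only control, and the columns of these livers are headed WT. Whether the controls used here carry Cas9 is therefore not stated in the paper. The virus enters hepatocytes well and non-parenchymal cells poorly, so the deletion does not reach every liver cell. Blnc1 itself was not analysed here. The comparison asks whether the mRNA of the respiratory chain and ATP synthase differed between these livers.

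The livers held 65384969 to 89350181 counted reads, of which the 81 genes took 1.28% to 1.35%. The labels do not state that each sample is a separate animal, so p-values measure only the spread between these samples, which may be technical. All 11 hepatocyte markers were present, none at 0 in any liver, and their summed values were 6916777 to 7625512 in control and 6551461 to 7718317 in LKO livers. Values below are normalized read counts, that is, reads divided by a size factor for the liver, in which 1 read was worth 0.836 to 1.19. They are given in the order control 1, 2 and 3 and then LKO 1, 2 and 3.

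Complex I takes electrons from NADH, complex II takes them from succinate, and both hand them to coenzyme Q. Complex III passes them to cytochrome c and complex IV to oxygen. Complexes I, III and IV pump protons, and ATP synthase uses the returning protons to make ATP. Liver depends on this system for gluconeogenesis, urea synthesis and the oxidation of fatty acids, and the nuclear genes are known to share promoter elements for NRF1, ETS-family factors such as GABPA, YY1 and the estrogen-related receptors.

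Promoter sequences are shown as background to the family, and no relation between these letters and the values of the livers was tested. RefSeq promoter windows (GRCm38.p6, from 250 bases before to 50 after the start site) were given for 67 of the 81 genes. The NRF1 letters (GCGCA, any base, then GCGC) were present on either strand in 16 of these 67 genes (23.9%) and in 5.19% of the 27025 genes with a window. The ETS letters CCGGAAG were present in 16 genes (23.9% against 9.93%), the YY1 letters AAGATGGCG in 8 (11.9% against 1.64%) and the estrogen-related receptor letters TCAAGGTCA in 2 (2.99% against 0.466%). The GC box GGGCGG (40.3% against 38.2%) and CCAAT (44.8% against 41.1%) were about as frequent as in all genes, and TATAAA was present in 8.96% against 15.7%. NRF1 or ETS letters stood in 28 of the 67 windows' genes. A match describes the sequence and not a bound site. The stretches below, each 30 bases on the strand of the gene, were chosen to show each element in a gene described in the results. Capitals mark the matched letters, and a match on the opposite strand appears as its reverse complement.

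Ndufs3, ETS (chr2:90904730-90904759, minus strand): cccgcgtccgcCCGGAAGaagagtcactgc
Ndufs7, YY1 (chr10:80249463-80249492, plus strand): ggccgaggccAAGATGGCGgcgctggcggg
Ndufs4, YY1 (chr13:114388045-114388074, minus strand): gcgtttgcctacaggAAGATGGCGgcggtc
Sdha, NRF1 (chr13:74350276-74350305, minus strand): ggggcgtgttGCGCAGGCGCagaatcttcc
Sdhd, ETS (chr9:50603877-50603906, minus strand): ccgtctcctgcCTTCCGGttcacgcttcag
Uqcrc1, NRF1 (chr9:108936668-108936697, plus strand): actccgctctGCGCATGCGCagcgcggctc
Cox6b1, ETS (chr7:30626124-30626153, minus strand): tcctctcgcagCTTCCGGccagtcggaatt
Cox6a1, NRF1 (chr5:115349101-115349130, minus strand): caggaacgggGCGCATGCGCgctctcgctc
Atp5c1, NRF1 (chr2:10080430-10080459, minus strand): ctgagctcccGCGCACGCGCactgagtccc
Atp5g2, NRF1 (chr15:102671070-102671099, minus strand): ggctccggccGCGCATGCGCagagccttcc
Atp5g3, estrogen-related receptor (chr2:73911359-73911388, minus strand): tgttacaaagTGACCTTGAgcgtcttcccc
Atp5sl, YY1 (chr7:25619430-25619459, plus strand): gttacctggcAAGATGGCGgcgcccagagc

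The matched letters began 27 bases before the start site in Ndufs3, 55 in Sdha, 28 in Cox6b1, 17 in Atp5c1 and 42 in Atp5g2. In the YY1 examples of Ndufs7, Ndufs4 and Atp5sl they began 24, 35 and 26 bases after it. Sdha held 3 NRF1 matches, and Cox6a1 held NRF1 and ETS matches. The windows of Cox6b2, Cox7a1 and Cox8b held none of the NRF1, ETS, YY1 and estrogen-related receptor letters. The same was true of the abundant genes Cox7a2, Atp5b and Ndufv1.

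None of the 81 genes differed between Blnc1 LKO and control livers at an adjusted p under 0.05 (limma, Benjamini-Hochberg over 17297 genes, of which 0.00578% passed). The smallest adjusted p among them was 0.714. On the recovered reads, 0 passed with edgeR (smallest adjusted p 0.732, where 0.0116% of all genes passed) and 0 with DESeq2 (0.755, where 0.486% passed). Only Cox6b2 and Atp5sl, both higher in LKO livers, reached an unadjusted p under 0.05, and they did so in each of the 3 tests. These are 2 of 81 genes, where 5.68% of all genes reached that level in limma (2.94% higher and 2.74% lower), 5.6% in edgeR and 4.89% in DESeq2. The fitted log2 fold changes (LKO over control, on the log2(value + 1) scale) ran from −0.59 for Cox4i2 to 0.83 for Cox6b2. Their median was 0.051, with 69 of 81 above 0, where 49.6% of all genes were above 0 and the median of all genes was −0.00099.

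The change was bounded closely for most of these abundant mRNAs. The 95% interval of the fold change lay within 1.25-fold either way for 73 of the 81 genes, against 47.9% of all genes and 83.2% of the 7831 genes with a mean of at least 1000. Among the 72 members with a mean of at least 1000 it did so for 70. The median standard error was 0.064 on the log2 scale for the members and 0.105 for all genes. At a mean of at least 1000 the 2 were close, 0.062 for the 72 members and 0.069 for the 7831 genes.

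**Figure D1:**
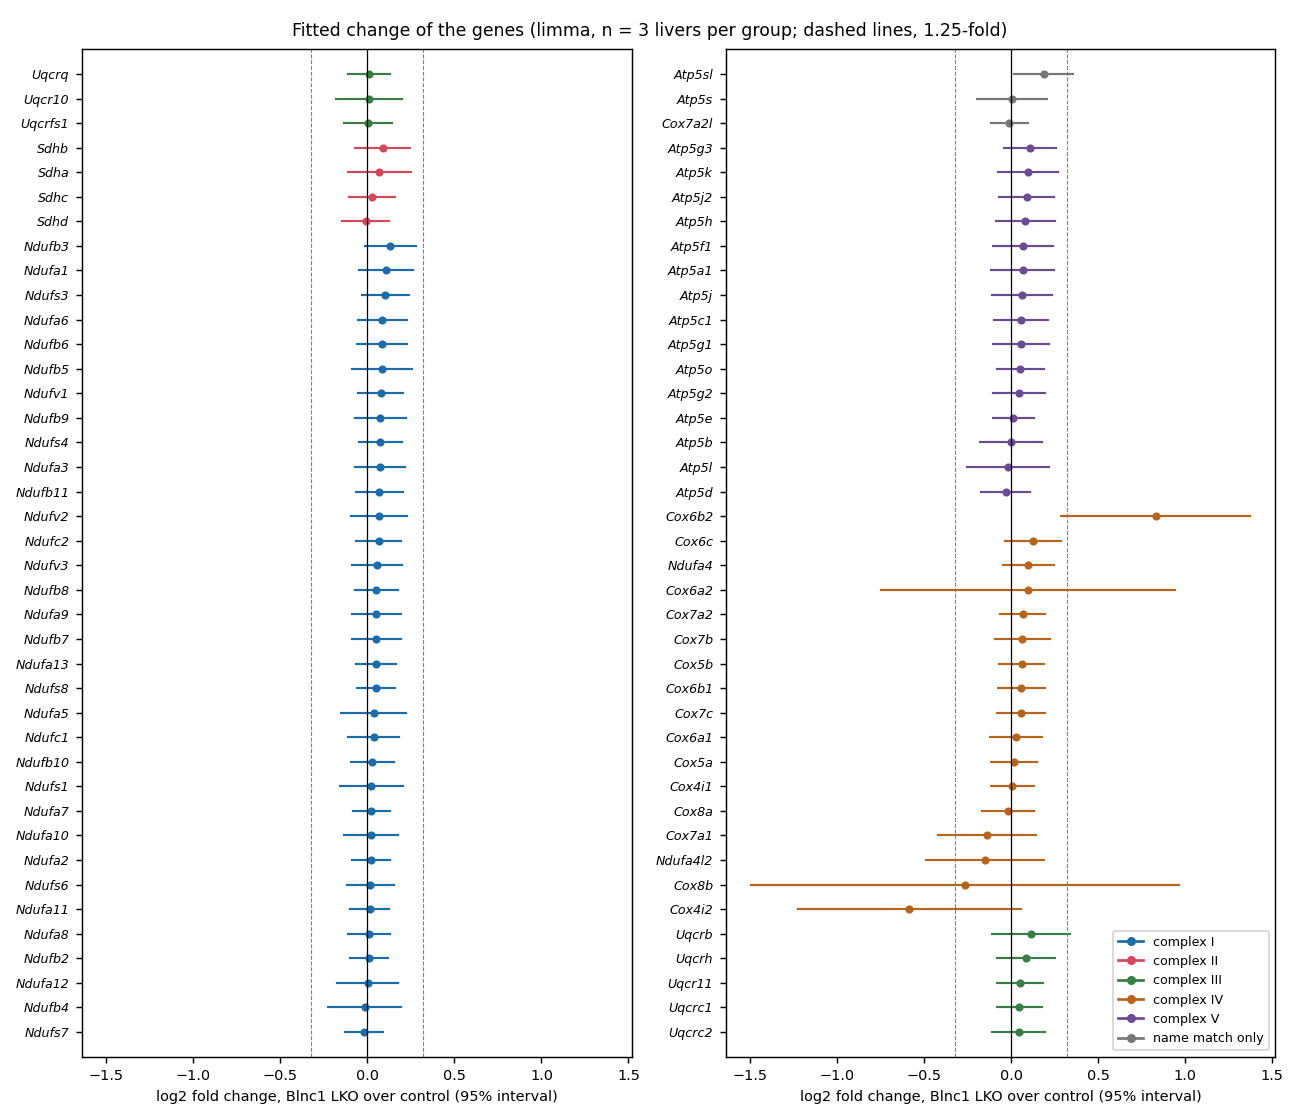
Fitted log2 fold change of the genes (points) with its 95% interval (lines), coloured by complex, with 3 control and 3 Blnc1 LKO livers; the horizontal axis is log2 of LKO over control and dashed lines mark 1.25-fold. Most intervals lie within the dashed lines, and the widest belong to the low isoforms Cox8b, Cox6a2, Cox4i2 and Cox6b2 of complex IV.

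Complex I had a median log2 fold change of 0.050, with 32 of its 34 genes above 0 and none at an unadjusted p under 0.05. Its nuclear core subunits carry the flavin and the iron-sulfur clusters. Ndufv1, which holds the NADH site, was at 11980, 11364 and 11070 in control and 12273, 11570 and 12436 in LKO livers, a log2 fold change of 0.076 (SE 0.056, adjusted p = 0.968 in limma). The control 1 value lay above that of LKO 2, so the groups overlapped. Ndufs1, the largest iron-sulfur subunit, was at 11515, 10411 and 11116 against 12383, 10160 and 11106. Its highest and its lowest value were both in LKO livers.

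Ndufs7, which carries the last iron-sulfur cluster before coenzyme Q, was at 4649, 4601 and 4581 against 4404, 4609 and 4619. It had the largest negative value of the complex, −0.021, with LKO 1 below every other liver. Ndufs8, an iron-sulfur subunit of the arm that meets the membrane, did not overlap: 4865, 4721 and 4794 against 5048, 4893 and 4927. Its log2 fold change was 0.048 with a 95% interval of −0.060 to 0.16 (adjusted p = 0.973 in limma).

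Ndufv2, an iron-sulfur partner of Ndufv1, was at 7644, 7752 and 8058 against 9079, 7682 and 7890. Ndufs3, a scaffold of the same arm, was at 5202, 5064 and 5182 against 5913, 5187 and 5519, a log2 fold change of 0.10 (SE 0.059, adjusted p = 0.930 in limma). In both, LKO 1 was the highest liver and LKO 2 lay among the controls. Without LKO 1 the value of Ndufs3 was 0.055, and that of Ndufv2 went from 0.068 to −0.0057. The 95% intervals of these 6 core subunits lay between −0.16 and 0.24.

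Among the accessory subunits of complex I, Ndufb3 of the membrane arm had the largest value. It was at 3686, 3632 and 3490 in control and 4209, 3644 and 4004 in LKO livers, a log2 fold change of 0.13 (SE 0.065, adjusted p = 0.894 in limma). LKO 1 and LKO 3 were above all controls and LKO 2 was not, and without LKO 1 the value was 0.085. Ndufs4 and Ndufb11, named because their groups did not overlap, were at 6000 ± 20.1 against 6317 ± 332 and at 7764 ± 68.9 against 8155 ± 542 (mean ± SD, n = 3). In both, LKO 1 was well above LKO 2 and LKO 3, and for Ndufb11 the LKO 2 value of 7829 stood just above the control 3 value of 7828. Without LKO 1 their log2 fold changes went from 0.073 to 0.031 and from 0.069 to 0.014.

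Complex II (succinate dehydrogenase) consists of a flavoprotein, an iron-sulfur protein and membrane anchors, all of them encoded in the nucleus. Sdha, the flavoprotein, was at 47855, 45817 and 46466 in control and 52822, 44093 and 50404 in LKO livers. The lowest and the highest liver were both LKO, and the log2 fold change was 0.068 (SE 0.080, adjusted p = 0.974 in limma). Sdhb, the iron-sulfur protein, was at 16711, 15693 and 16688 against 19026, 16251 and 16952, with the largest value of the complex, 0.087. The anchors Sdhc (13950 ± 59.5 against 14213 ± 846, n = 3) and Sdhd (18646 ± 476 against 18521 ± 1066, n = 3) had log2 fold changes of 0.025 and −0.011. All 4 genes were highest in LKO 1, and without it Sdha was at 0.013, Sdhb at 0.021, Sdhc at −0.023 and Sdhd at −0.058.

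Complex III had all 8 genes above 0, with a median log2 fold change of 0.044 and none at an unadjusted p under 0.05. Uqcrfs1, the Rieske iron-sulfur protein, was at 18733, 17893 and 18305 in control and 19233, 17099 and 18766 in LKO livers, and its group means were 18310 and 18366. The core proteins Uqcrc1 and Uqcrc2 had log2 fold changes of 0.046 (SE 0.056) and 0.042 (SE 0.066). Uqcrb, a coenzyme Q-binding subunit, had the largest value, 0.11 (SE 0.099, adjusted p = 0.971 in limma), which came from LKO 1: it was at 5574, 5456 and 5642 in control and 7168, 5455 and 5558 in LKO livers. Without LKO 1 it was −0.013. Of the 50-base windows of the Uqcrb transcript, 43.2% also occur in genes elsewhere, so its reads are uncertain.

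Complex IV (cytochrome c oxidase) is the complex with the most tissue isoforms, and its genes spanned the widest range. Its median log2 fold change was 0.055, with 12 of 17 genes above 0. Cox4i1, the general form of subunit 4, was at 28598, 27875 and 27826 in control and 28405, 27336 and 28915 in LKO livers, a log2 fold change of 0.0058 (95% interval −0.12 to 0.13). Cox6b1, Cox7a2 and Cox7b, the forms found in most tissues, had log2 fold changes of 0.058, 0.065 and 0.063, and Cox6a1 and Cox8a had 0.028 and −0.019. All of these overlapped between groups.

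Ndufa4, a complex IV subunit despite its name, was at 23380, 23057 and 23431 against 26812, 23477 and 24557, and its groups did not overlap. Its log2 fold change was 0.097 (SE 0.064, adjusted p = 0.951 in limma). Cox6c, a small subunit of the membrane domain, did not overlap either: 9775, 9587 and 10099 against 11870, 10113 and 10214 (0.12, SE 0.070, adjusted p = 0.930 in limma). For both, LKO 2 stood just above the highest control, and without LKO 1 the log2 fold changes were 0.044 for Ndufa4 and 0.050 for Cox6c.

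In all, the groups did not overlap for 9 of the 81 genes, 7 higher and 2 lower in LKO, where 10.6% of all genes did not overlap (5.35% higher and 5.28% lower). The 7 higher genes were Ndufs4, Ndufs8, Ndufb11, Ndufa4, Cox6c, Cox6b2 and Atp5sl, and the 2 lower genes were Cox4i2 and Cox7a1.

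The tissue-restricted isoforms were all far below their partners. Compared per kb of transcript, control means were 42.1 for Cox6b2 and 25434 for Cox6b1, 38.4 for Cox4i2 and 37717 for Cox4i1, 24.7 for Cox6a2 and 32651 for Cox6a1, and 18.9 for Cox8b and 24054 for Cox8a. Cox7a1 (412) and Ndufa4l2 (209.97) stood less far below Cox7a2 (16924) and Ndufa4 (38179). Cox6a2, Cox7a1 and Cox8b are known from heart and skeletal muscle, Cox6b2 from testis, Cox4i2 from lung, and Ndufa4l2 as a gene induced by hypoxia.

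Cox6b2 (chr7:4751792-4753094, minus strand, GRCm38) was at 21.4, 18.1 and 19.2 in control and 41.7, 34.8 and 30.9 in LKO livers. Every LKO liver was above every control, and the means were 19.6 ± 1.70 and 35.8 ± 5.44 (SD, n = 3), 1.83-fold. The log2 fold change was 0.83 (SE 0.24), with an unadjusted p of 0.00745 and an adjusted p of 0.714 in limma. These values rest on 17 to 37 reads per liver, and no 50-base window of the transcript occurs in another gene elsewhere. Leaving out each liver in turn gave 0.72 to 0.93.

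Cox4i2 (chr2:152754173-152765037, plus strand, GRCm38) was at 25.2, 32.0 and 26.6 in control and 22.6, 19.7 and 13.4 in LKO livers, lower in each LKO liver than in any control. Its log2 fold change was −0.59 (SE 0.28) with an unadjusted p of 0.0683 in limma, from 16 to 30 reads per liver. Without LKO 3 it was −0.38. Cox7a1 was at 157, 168 and 161 against 139, 155 and 146, also without overlap, a log2 fold change of −0.14 (SE 0.12, adjusted p = 0.973 in limma). Ndufa4l2 was at 199.5, 201.4 and 187 against 177, 209 and 148, and Cox6a2 and Cox8b overlapped widely, with 9 to 27 and 2 to 15 reads per liver.

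Shares of isoforms were compared by an exact permutation test over livers, two-sided, for 8 shares. With 3 livers against 3 it cannot give a p below 0.1. Cox6b2 made up 0.124% ± 0.0077 of the Cox6b1 and Cox6b2 values in control and 0.218% ± 0.025 in LKO livers (SD, n = 3, exact permutation p = 0.1, adjusted 0.4). Cox4i2 made up 0.0994% of the subunit 4 values in control and 0.066% in LKO livers (exact permutation p = 0.1, adjusted 0.4). The other 6 shares had adjusted p-values of 0.533 to 0.9. The partners Cox6b1 and Cox4i1 had log2 fold changes of 0.058 and 0.0058, so the shares follow the low isoforms.

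**Figure D2:**
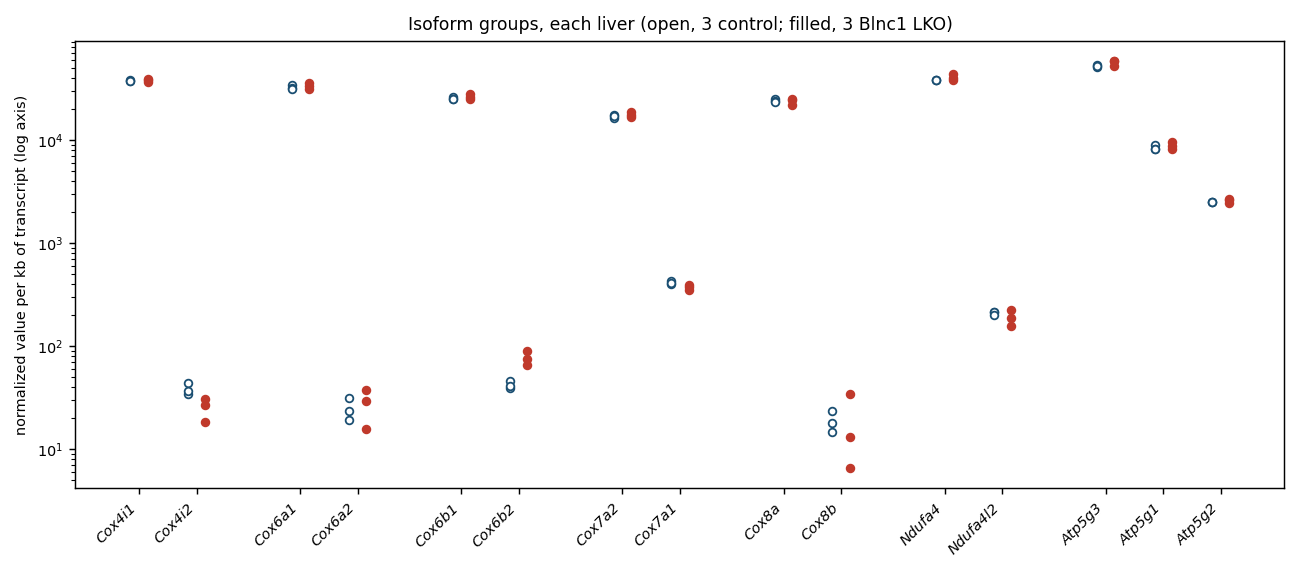
Normalized value per kb of transcript (log axis) for the isoform groups of complex IV and the c ring, with 3 control livers (open points) and 3 Blnc1 LKO livers (filled points). Cox6b2 lies higher in each LKO liver and Cox4i2 lower in each than in any control liver, and both lie far below Cox6b1 and Cox4i1.

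Complex V makes ATP in its F1 head, which is joined to the membrane ring by a stalk. Atp5b, the catalytic beta subunit and per kb the highest of all 81 genes (control mean 61625 per kb), was at 123273, 114847 and 116098 in control and 119859, 114931 and 118804 in LKO livers. Its log2 fold change was −0.0021 with a 95% interval of −0.18 to 0.18. Atp5a1, the alpha subunit, was at 90160, 86793 and 85800 against 97626, 85739 and 91784 (0.065, SE 0.079). The stalk subunits Atp5c1, Atp5d and Atp5e had log2 fold changes of 0.055, −0.034 and 0.011, and Atp5d was the lowest of the complex. All 5 overlapped between groups.

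The c ring, which turns as protons pass, is built from identical mature proteins made by 3 genes. Atp5g3 held most of the counted values. It was at 38489, 36384 and 36985 in control and 41441, 37519 and 41611 in LKO livers, with the largest log2 fold change of the complex, 0.11 (SE 0.067, adjusted p = 0.951 in limma). LKO 2 lay between the controls. Atp5g1 made up 11.6% ± 0.29 of the 3 genes' values in control and 11.3% ± 0.92 in LKO livers (SD, n = 3, exact permutation p = 0.8), and Atp5g2 2.54% ± 0.076 and 2.45% ± 0.24 (exact permutation p = 0.6). Every 50-base window of the Atp5g2 transcript and 66.0% of those of Atp5g1 also occur in genes elsewhere, whereas none of Atp5g3 do. These shares are therefore uncertain. The values were whole reads, and how the counting treated reads of shared sequence is not stated.

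Shared sequence was also present in genes of the other complexes, and its effect on the counts was not measured. Of the 81 genes, 47 had no 50-base window in a gene elsewhere, 17 had more than 10% and 5 more than 50%: Atp5g2, Atp5l (68.5%), Atp5g1, Cox7c (53.0%) and Atp5h (50.5%). The lowest genes of complexes I and V per kb were both of this kind: Ndufb4 (374 per kb, 37.0% shared) and Atp5l (722 per kb), where the medians of the complexes were 6901 and 16300 per kb. Other genes with shared sequence were not as low, such as Atp5h at 15249 per kb, Uqcrb at 10388 and Cox7c at 7264. The highest genes per kb were Ndufb9 of complex I (19520), Sdha of complex II (16108), Uqcrq of complex III (41216), Ndufa4 of complex IV (38179) and Atp5b of complex V. They shared at most 0.857% of their windows with genes elsewhere, but Ndufb9 shared 23.4% with genes that overlap it. More than 10% was shared with overlapping genes in 13 genes, among them Atp5o (39.4%), Ndufb6 (34.1%) and Ndufb9, and 3 of the 13, Atp5o, Atp5l and Atp5f1, also had more than 10% elsewhere. The library kit does not mark strand, so reads of overlapping genes cannot be told apart.

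**Figure D3:**
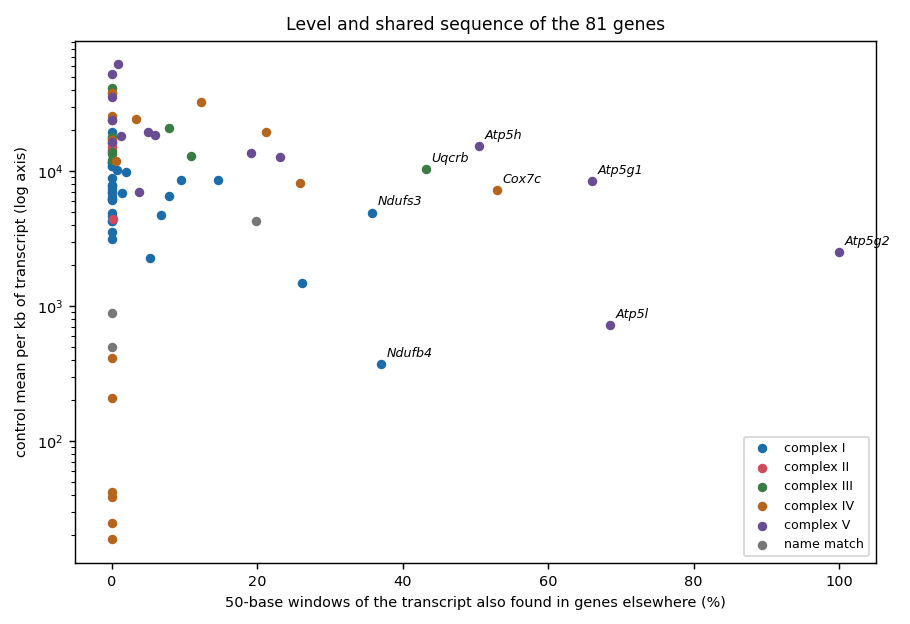
Control mean per kb of transcript (log axis) against the share of a transcript's 50-base windows that also occur in genes elsewhere, 1 point per gene, coloured by complex. Ndufb4 and Atp5l combine low values (374 and 722 per kb) with shares of 37.0% and 68.5%, while the 6 lowest isoforms of complex IV have no shared window.

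The 3 genes that match by name only were Cox7a2l, Atp5s and Atp5sl. Cox7a2l, a factor that joins complexes III and IV into supercomplexes, was at 4618 ± 83.3 in control and 4583 ± 55.0 in LKO livers (SD, n = 3), a log2 fold change of −0.011 with a 95% interval of −0.12 to 0.10. Atp5s was at 737 ± 52.9 and 738 ± 54.0. Atp5sl, now called Dmac2 and known from the assembly of the membrane arm of complex I, was at 2108, 2093 and 2107 in control and 2680, 2259 and 2263 in LKO livers. It was above all controls in each LKO liver, with a log2 fold change of 0.19 (SE 0.075, unadjusted p = 0.036, adjusted p = 0.851 in limma). Without LKO 1 it was 0.10.

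The median deviation of the members differed between livers and was highest in LKO 1. For each gene the deviation of a liver from the control mean was taken on the log2(value + 1) scale. The median over the 81 genes was 0.031, −0.023 and −0.0091 in control 1, 2 and 3, and 0.12, −0.011 and 0.037 in LKO 1, 2 and 3. LKO 1 was thus above all controls, LKO 2 among them and LKO 3 just above control 1, so that the groups overlapped. LKO 1 was the highest of the 6 livers for 56 of the 81 genes (69.1%), against 25.5% of all genes and 34.0% of the genes with a mean of at least 1000. The same held by complex: LKO 1 had the highest median in each, from 0.081 in complex III and 0.087 in complex IV to 0.11 in complex I, 0.15 in complex II and 0.16 in complex V.

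**Figure D4:**
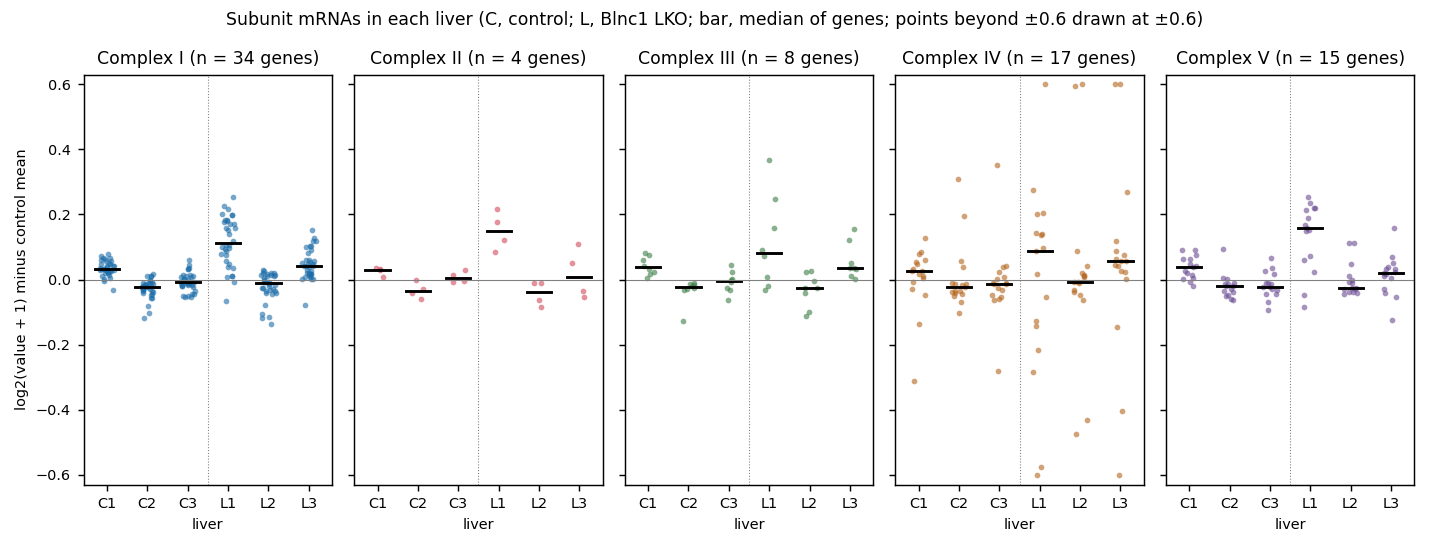
Deviation of each subunit gene from its control mean (log2(value + 1), vertical axis) in each of the 6 livers, C1 to C3 control and L1 to L3 Blnc1 LKO, by complex; points are genes, bars are medians, and points beyond 0.6 are drawn at 0.6. The bar of L1 is the highest in every complex (0.081 to 0.16) and that of L2 lies at or below 0.

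Without LKO 1 the median log2 fold change of the members was 0.012, with 50 of 81 above 0 (50.1% of all genes). The median then went from 0.050 to 0.013 in complex I, from 0.047 to −0.0048 in complex II, from 0.044 to 0.012 in complex III, from 0.055 to 0.026 in complex IV and from 0.055 to −0.0039 in complex V. Of the 69 genes above 0 with all livers, 55 became smaller by more than 1.5-fold or turned, and 22 of these were below 0. Without LKO 2 it was 0.087, with 69 of 81 above 0 (50.6% of all genes), and 10 genes reached an unadjusted p under 0.05 (10.7% of all genes did), all of them higher: Sdha, Ndufs3, Ndufb3, Ndufa1, Ndufa6, Ndufb6, Ndufa4, Atp5g3, Cox6b2 and Atp5sl. The number of genes above 0 thus went from 69 to 50 when LKO 1 alone was left out. The spread was larger among LKO livers for 68 of the 81 genes (84.0%, against 67.0% of all genes and 74.4% of those with a mean of at least 1000), with median SDs of 0.094 in LKO and 0.041 in control livers on the log2 scale.

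LKO 1 had the fewest reads of the 6 livers, 65384969. The deviations were also read against the base composition of the transcripts, and a relation was present in several livers. Over the 72 members with a mean of at least 1000, the Spearman correlation between the deviation in LKO 1 and the GC content of the transcript was −0.52, and over 7799 genes of that level it was −0.39. In control 1, 2 and 3 it was 0.25, 0.12 and −0.39 over the members and 0.36, 0.090 and −0.37 over the 7799 genes, and in LKO 2 and 3 it was 0.23 and 0.0031 over the members and 0.42 and 0.064 over the 7799 genes. The correlation of largest size was that of LKO 1 over the members and that of LKO 2 over the 7799 genes. The correlations are given as descriptions across genes, which share each library and are not independent. Members below the median GC content of 51.8% had a median deviation of 0.16 in LKO 1, and those at or above it 0.093. The extremes were Uqcrb at 0.37 and Cox6c at 0.27, and Cox8a at −0.13, Atp5d at −0.085 and Ndufs7 at −0.066. With the trend on GC content removed from each liver, the median of the members was 0.14 in LKO 1, −0.029 in LKO 2 and 0.040 in LKO 3. The part of read depth in this was not tested. In whole liver, fewer cells of a type and less RNA per cell cannot be told apart.

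Genes that work beside the subunits were examined in lists. The 5 measured subunits whose names fall outside the rule, such as Cyc1 of complex III, had a median log2 fold change of 0.034, with 3 above and 2 below 0. The 45 measured assembly factors had 0.0098 (27 above 0, 18 below), the 17 electron carriers and coenzyme Q synthesis genes 0.013 (9 and 8), and the 20 genes of mitochondrial membrane transport and import −0.0017 (10 and 10). The 13 citric acid cycle enzymes had −0.022 (5 and 8), the 77 mitochondrial ribosomal proteins 0.013 (42 and 35) and the 81 cytosolic ribosomal proteins −0.036 (15 and 66). None of the genes in these lists passed an adjusted p of 0.05 or an unadjusted p of 0.05 in limma. The mitochondrially encoded subunits were not analysed here.

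The 18 measured regulators of mitochondrial biogenesis, such as the coactivators and transcription factors known to act on such promoters, had a median log2 fold change of 0.0054 (10 above 0, 8 below). One of them, Tfb1m, a methyltransferase of the mitochondrial ribosome, was at 558 ± 16.8 in control and 651 ± 64.4 in LKO livers (SD, n = 3), with an unadjusted p of 0.0441 and an adjusted p of 0.870 in limma. The position of LKO 1 was seen in these lists as well: its median deviation was 0.11 for the assembly factors and 0.11 for the biogenesis regulators, 0.091 for the electron carriers, 0.036 for the citric acid cycle enzymes and 0.039 for the mitochondrial ribosomal proteins, but −0.043 for the cytosolic ribosomal proteins. LKO 1 was the highest liver for 30 of the 45 assembly factors.

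**Figure D5:**
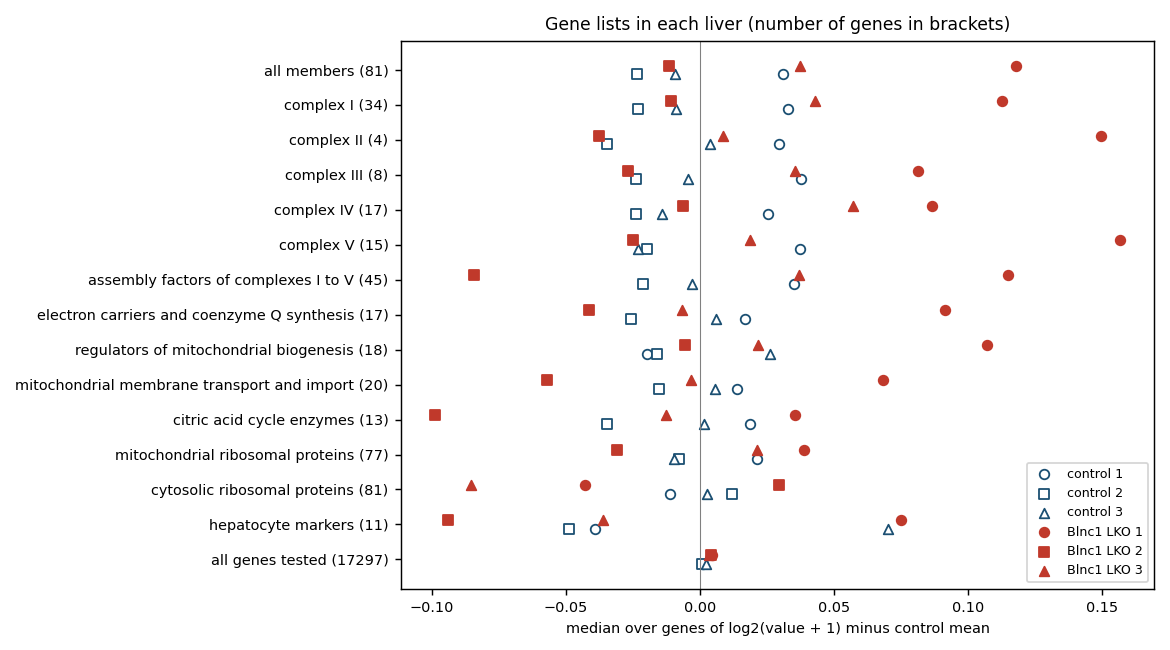
Median over the genes of each list of the deviation from the control mean (log2(value + 1), horizontal axis) in each liver; open points are the 3 control livers and filled points the 3 Blnc1 LKO livers, with the number of genes in brackets. LKO 1 lies farthest right for the 81 genes (0.12), for each complex and for the assembly factors (0.11), whereas the median of all genes is near 0 in every liver.

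Markers of liver cell types were read beside these values. The 11 hepatocyte markers had a median deviation of 0.075 in LKO 1, −0.094 in LKO 2 and −0.036 in LKO 3, and −0.039, −0.049 and 0.070 in control 1, 2 and 3, so LKO 1 and control 3 were the high livers. The median log2 fold changes were 0.0011 for hepatocyte, 0.049 for macrophage, −0.23 for stellate cell, −0.078 for endothelial cell, −0.043 for cholangiocyte and −0.012 for lymphocyte markers (11, 11, 10, 10, 7 and 10 genes). Genes above and below 0 numbered 6 and 5 for hepatocyte, 7 and 4 for macrophage and 2 and 8 for stellate cell markers. They numbered 2 and 8 for endothelial cell, 2 and 5 for cholangiocyte and 4 and 6 for lymphocyte markers. The summed values of the stellate cell markers were 110271 to 122215 in control and 92389 to 110264 in LKO livers, with none at 0, and their median deviation was −0.32 in LKO 1, 0.057 in LKO 2 and −0.39 in LKO 3. At an unadjusted p under 0.05 in limma, and with adjusted p-values of 0.548 to 0.873, there were Col1a1 (−0.61), Col1a2 (−0.48), Col3a1 (−0.47) and Acta2 (−0.52) of stellate cells, Pecam1 (−0.16), Lyve1 (−0.57) and Cdh5 (−0.14) of endothelial cells, Adgre1 (0.15), Clec4f (0.46), Vsig4 (1.04) and Marco (3.03) of macrophages, and Klrb1c (0.83) of lymphocytes, each as a log2 fold change. Of all genes, 5.68% reached that unadjusted p in limma. Marco was at 32.6, 87.4 and 23.4 in control and 794, 95.8 and 509 in LKO livers, so LKO 2 stood close to control 2. Klrb1c was at 9.32, 7.46 and 14.9 against 14.3, 18.8 and 25.1, low values whose groups overlapped. The groups of Clec4f, Vsig4 and Lyve1 overlapped too. Clec4f was at 11585 in control 1 and 9864 in LKO 2, and Vsig4 at 2803 in control 2 and 2640 in LKO 2. Lyve1 was at 2019 in control 2 and 2050 in LKO 3. With DESeq2 on the recovered reads, Col1a1, Acta2, Col1a2 and Col3a1 passed, with adjusted p-values of 0.0046, 0.016, 0.016 and 0.025. In edgeR their adjusted p-values were 0.543 to 0.654. The part of cell composition in the values of the members was not tested.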

How the data were processed

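PolyA-selected liver RNA of 6 samples was sequenced with a kit that does not mark strand. Per the labels and the methods, the authors aligned reads to mm10 with STAR and counted them with HTSeq, and the submitters' processing notes also name FastQC and DESeq2. The versions and the gene annotation are not given in the sources used here. The deposited signal is each gene's read count after the authors' division by the size factor of its library. Dividing each value by the value of 1 read gave whole numbers for 100% of values (within 0.01 read). Another 23 rows carry calendar dates in place of symbols and were kept.

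limma (version 3.58.1, R 4.3.3) was run on log2(value + 1), using lmFit and trended eBayes without covariates, for the 17297 genes with 3 or more livers at 1 or above, followed by Benjamini-Hochberg adjustment. On the recovered reads, edgeR's quasi-likelihood test (version 4.0.16) called 2 and DESeq2 (version 1.42.0) 84 of these genes at an adjusted p under 0.05, and limma 1. The fits were also run on simulated data. The changes planted there were larger than that of any member, so this run does not measure power for small differences. Transcripts, lengths and gene positions came from GENCODE M21 (GRCm38), which held all 81 genes, taking 1 principal transcript per gene, and promoters from RefSeq.

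Text values were given for core, anchor, c ring and isoform genes, name matches, genes at an unadjusted p under 0.05, and the largest and smallest change of each complex. Genes whose groups do not overlap, or which lead in level or shared sequence, were added after their values were seen. The values of 1 member are not reported here. The members and the lists were chosen with earlier results of these data known. The replicate numbers of the labels name no pairing of the mice. Alternatives were a pseudocount of 0.1, no filter, at least 10 reads in every liver, scaling by library size, omission of each liver, a block for the replicate number, isoform values divided by transcript length and, chosen after seeing the data, removal of the GC trend. Replicates differed by 20.8 to 69.96 times the sampling noise (chi-square per degree of freedom), so no 2 libraries were the same.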

Additional observations from a re-analysis of the deposited data

How the results depend on the processing

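No member passed an adjusted p of 0.05 in any alternative. The medians of the members and of each complex moved by less than the spread between livers. That spread was taken over the same livers, LKO 1 included, so it is a weak measure of stability when a liver is left out. The medians of complexes II and V turned negative without Blnc1 LKO replicate 1 (−0.0048 and −0.0039). When each liver was left out, the number of members at an unadjusted p under 0.05 was 1 to 10. It was 10 without Blnc1 LKO replicate 2 (10.7% of all genes) and 1 without any one of the controls. The median of all members then ran from 0.012 without Blnc1 LKO replicate 1 to 0.087 without Blnc1 LKO replicate 2, and that of the mitochondrial ribosomal proteins from −0.0093 to 0.048. Divided by transcript length, the share of Cox6b2 differed by 0.124 percentage points (0.0934 as deposited) and that of Cox7a1 by −0.31 (−0.19 as deposited). The GC trend removed, chosen after seeing the data, turned Atp5d to 0.0015, Cox8a to 0.0031 and Ndufs7 to 0.012. Atp5s was at −0.00087 with edgeR, −0.00046 with DESeq2 and −0.0041 with scaling by library size, which also gave Uqcrfs1 −0.0028, and Cox8b was at 0.023 with edgeR. With DESeq2 the stellate cell markers Col1a1, Acta2, Col1a2 and Col3a1 passed an adjusted p of 0.05, which none did in limma or edgeR. The cause was not tested.

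Among the named members, 21 changed sign when a liver was left out, none of them larger than 0.27 in size as reported. Their log2 fold changes ran from −0.022 to 0.029 for Atp5b, −0.013 to 0.098 for Atp5c1, −0.068 to 0.011 for Atp5d, −0.020 to 0.031 for Atp5e, −0.0039 to 0.11 for Atp5g1, −0.056 to 0.057 for Atp5s, −0.012 to 0.029 for Cox4i1, −0.017 to 0.068 for Cox6a1, −0.15 to 0.43 for Cox6a2, −0.022 to 0.0033 for Cox7a2l, −0.0049 to 0.11 for Cox7b, −0.060 to 0.035 for Cox8a and −0.81 to 0.19 for Cox8b. They ran from −0.051 to 0.092 for Ndufs1, −0.033 to 0.0012 for Ndufs7, −0.0057 to 0.11 for Ndufv2, −0.023 to 0.055 for Sdhc, −0.058 to 0.015 for Sdhd, −0.013 to 0.18 for Uqcrb, −0.016 to 0.084 for Uqcrc2 and −0.031 to 0.053 for Uqcrfs1.

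Same-numbered control and LKO livers did not deviate together (correlations −0.058, −0.019 and −0.11). No liver correlated best with its own number, so the numbers were not taken as a pairing. With the replicate number as a block the median of the members was 0.051, 2 reached an unadjusted p under 0.05 and 0 passed the adjusted threshold. With 3 livers per group, differences of members with under 50 reads in a liver (Cox6a2, Cox4i2, Cox6b2 and Cox8b) were poorly bounded, as their intervals show.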
